A study of Mus musculus with 6 samples.

Results

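The genes described here build the junctions that join cells to one another: 46 genes of tight, adherens and gap junctions and of desmosomes, out of 56941 Ensembl gene IDs in the count table. They were taken as a list of names, all 46 of which matched an ID, and were parted by textbook knowledge into 9 endothelial members, 16 epithelial members and 21 shared members, which both kinds of cell or other cells express. The libraries were made from CD31-selected lung cells of mouse pups, 3 from pups in room air with 21% oxygen and 3 from pups in hyperoxia with 75% oxygen. Exposure started on postnatal day 0 and lungs were taken on day 7 in both groups. The labels name no strain, sex or genotype, and do not say whether a library came from 1 pup or from several, so p-values measure only the spread between these libraries, which may be partly technical. CD31 is the adhesion protein encoded by Pecam1, and the selection was made with magnetic beads on digested whole lung.

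Tight junctions seal the gap between neighbouring cells. Claudins and the MARVEL proteins occludin, tricellulin and MARVELD3 form their strands, and the zonula occludens proteins and cingulin tie the strands to actin. In adherens junctions, cadherins bind their like on the next cell and hold catenins on the inner side. Desmosomes anchor keratin filaments in epithelia, and gap junctions are channels of connexins through which ions and small molecules pass. In lung capillaries the seal rests on claudin-5 and VE-cadherin, while the alveolar epithelium, which sets the tighter barrier to fluid, uses claudin-18, claudin-3, claudin-4 and E-cadherin.

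Totals ran from 39379793 to 42343192 counts per library. The selected cells carried the endothelial markers at high levels, with 12810 to 17170 CPM in room air and 11030 to 14960 CPM in hyperoxia summed over 14 pan-endothelial genes (CPM, the count scaled to the library's size, corrected by the trimmed mean of M values, TMM). Epithelial transcripts were present too. The 9 markers of alveolar type 1 cells, the thin cells of gas exchange, summed to between 2015 and 2827 CPM in room air and between 4955 and 6421 CPM in hyperoxia. The 8 markers of surfactant-making alveolar type 2 cells summed to between 12300 and 19250 CPM in room air and between 13700 and 16740 CPM in hyperoxia, and no marker of either list was at 0 in all libraries. Room air 3 and hyperoxia 2 had the lowest endothelial sum and the highest type 1 sum of their group. Hyperoxia 1 and 3 held at most 0.0485 CPM of 4 Y-linked genes, and the other 4 libraries 131.5 to 162.3 CPM, so the sex of the pups and oxygen were partly tied. Hyperoxia 2 thus held cells of a male pup that hyperoxia 1 and 3 lacked. In bulk libraries such as these, fewer cells of a type and less RNA per cell cannot be told apart.

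In hyperoxia the epithelial junction genes that passed the test were all higher, and 3 of the 4 endothelial ones that passed were lower. Of 45 members that passed the filter on low counts, 9 rose and 5 fell by edgeR's quasi-likelihood test at an adjusted p below 0.05, and 31 did not pass. Over all genes 6.77% rose and 4.41% fell, 11.2% together, against 31.1% of the members. Of the 15 epithelial members tested, 7 rose and 0 fell, with a median log2 change of 0.55, where the median of all genes was -0.01. At an unadjusted p below 0.05 edgeR also gave 0 falls among them, as did DESeq2 and limma-voom after adjustment. Of the 9 endothelial members, 3 fell and 1 rose, with a median of -0.39. Among the 21 shared members 1 rose and 2 fell, and their median was 0.02. The hyperoxia and room air libraries did not overlap at 20 of the 45 members (44.4%), where 30.9% of all genes did not overlap. The number of lower members rested on single libraries: it was 2 without room air 1, without room air 2 or without hyperoxia 2, and 8 without room air 3. Gja5 and Gjc1 remained called lower in each of these 4 fits. With counts scaled to the summed pan-endothelial markers in place of TMM, 7 members rose and 1, Gja4, fell. The log2 changes of Marveld3 and Cdh1 were then larger, 1.71 and 1.01, but did not pass (adjusted p = 0.0518 and 0.0656). Those of Gja5, Pcdh12, Ctnnd1 and Gjc1 were smaller, -0.61, -0.50, -0.27 and -0.38, and did not pass either. That scaling moved the median of all genes to 0.22, and 87.5% of all calls were then rises, against 60.6% with TMM.

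**Figure D1:**
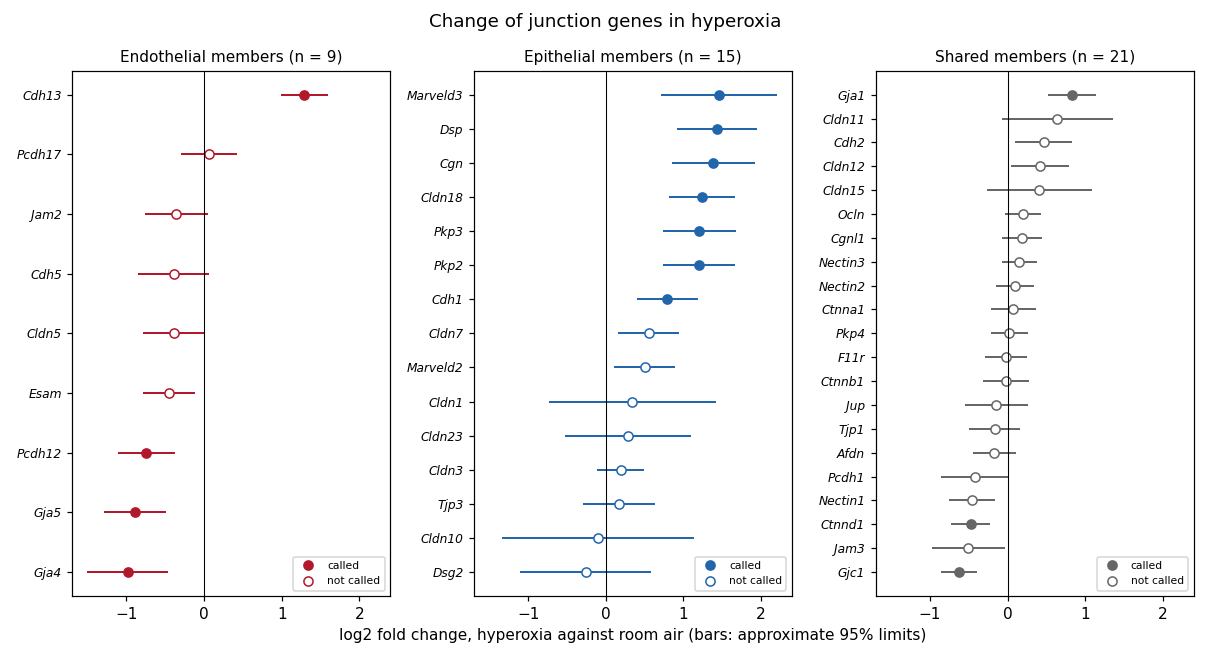
Log2 fold change of each tested member, hyperoxia against room air, with approximate 95% limits as bars and 3 libraries per group. Filled points passed the test. The 7 called epithelial members lie between 0.79 and 1.46, and the 3 called endothelial falls between -0.985 and -0.74.

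Levels were compared between genes per kilobase of exon. Cldn5, the claudin of endothelium, was the most abundant member in both groups, at 1483 CPM per kb in room air and 1130.0 CPM per kb in hyperoxia. Cdh5, which encodes VE-cadherin, came next with 1091 and 832 CPM per kb. The third in room air was the connexin gene Gja4 at 254 CPM per kb, followed by Esam, an endothelial adhesion molecule gene, at 236 CPM per kb. In hyperoxia Gja4 was ninth at 128.5 CPM per kb, and Cldn18 had moved from the tenth place at 126 CPM per kb to the third at 297 CPM per kb. Endothelial members made up 69.3% ± 2.87 of the summed level per kb of all members in room air and 59.7% ± 4.17 in hyperoxia (mean ± SD, n = 3). Epithelial members made up 5.99% ± 2.27 and 12.95% ± 3.42, and shared members 24.7% ± 0.939 and 27.3% ± 0.806. None of these shares overlapped between the groups. A share also falls when the others rise. In CPM, the endothelial members summed to 7150 to 10420 in room air and 5546 to 7712 in hyperoxia, with overlap. The epithelial sums, 822.5 to 1225 and 1723 to 2405 CPM, did not overlap. At the other end, Dsc2, a desmosomal cadherin gene, reached at most 0.254 CPM in any library and was not tested.

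**Figure D2:**
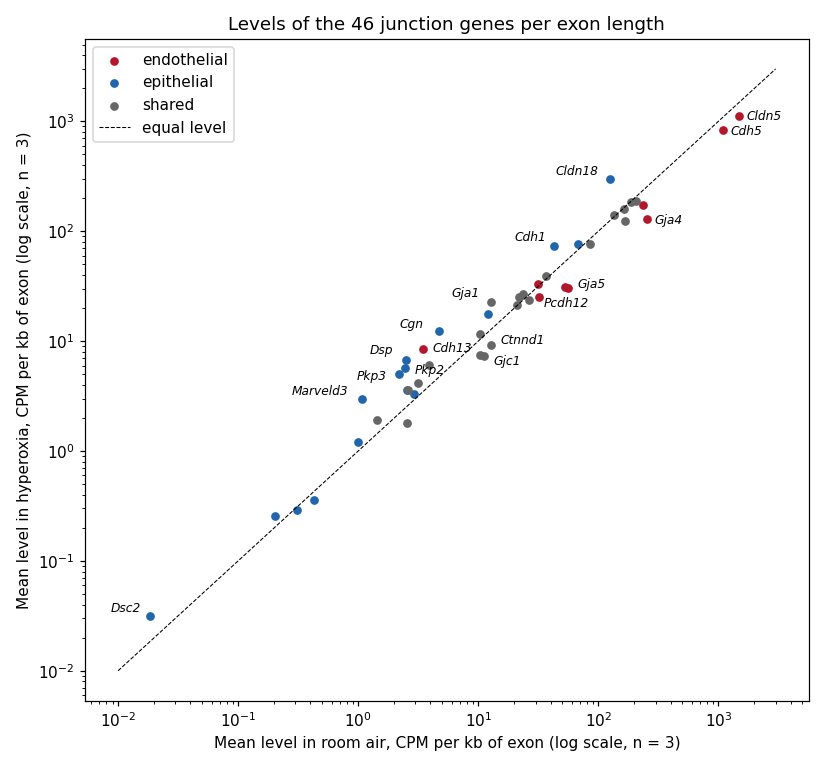
Mean level of the 46 members per kilobase of exon in room air and in hyperoxia, both on log scales, n = 3 per group. Called members, Cldn5, Cdh5 and Dsc2 are named, and the dashed line marks equal levels: the called epithelial members lie above it, and Gja4, Gja5, Pcdh12, Gjc1 and Ctnnd1 below it.

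Among the claudins and other strand proteins 2 of 13 rose and 0 fell by edgeR (1, Cldn5, was lower at an unadjusted p below 0.05, and 0 by DESeq2). For this count and each family's count below, the shares over all genes were 6.77% higher and 4.41% lower. Cldn18 encodes claudin-18, which the alveolar epithelium needs for its barrier. It stood at 466, 496.5 and 721 CPM in room air and at 1151, 1570.0 and 1252 CPM in hyperoxia. Every hyperoxia library lay above every room air library, with hyperoxia 2 highest in its group and room air 3 in the other. The rise was 2.36-fold (log2 change 1.24 ± 0.19 SE, edgeR adjusted p = 0.00271). Marveld3 encodes a MARVEL protein of epithelial tight junctions. It was at 2.69, 3.16 and 4.75 CPM in room air and 7.83, 14.9 and 6.47 CPM in hyperoxia, without overlap. Its log2 change of 1.46 ± 0.34 SE had the largest size of any member (edgeR adjusted p = 0.0199), and it rested on hyperoxia 2: without that library it was 1.02 and did not pass (adjusted p = 0.0522). Its adjusted p was 0.0776 with room air 1 left out and 0.0853 with room air 2 left out.

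The other strand genes among the members did not pass. Cldn3, which is more abundant in type 2 than in type 1 cells, averaged 84.9 ± 13.8 CPM in room air against 96.8 ± 12.5 in hyperoxia (log2 change 0.19, 95% limits -0.12 to 0.50, edgeR adjusted p = 0.445). Cldn7, an epithelial claudin found along the side walls of cells, was at 23.6 ± 5.06 and 34.6 ± 6.27 CPM (log2 change 0.55, edgeR adjusted p = 0.0774). It passed by DESeq2, in the fit of unfiltered counts and when room air 3, hyperoxia 1 or both room air 3 and hyperoxia 2 were left out. Marveld2, the gene for tricellulin, which seals the points where 3 cells meet, was higher in all 3 hyperoxia libraries (10.5 to 13.9 CPM against 7.67 to 9.15 CPM in room air) and did not pass (edgeR adjusted p = 0.107). Ocln, the occludin gene, also stood higher without overlap, from 83.9 to 101.5 CPM in room air against 103.8 to 108.5 in hyperoxia (log2 change 0.20, edgeR adjusted p = 0.271).

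Cldn5 showed 2537, 2024 and 1740.0 CPM in room air and 1828, 1393 and 1579 CPM in hyperoxia. Room air 3 lay below hyperoxia 1, so the groups overlapped. Its log2 change was -0.39 with 95% limits of -0.78 to -0.002, and it did not pass (edgeR adjusted p = 0.196). Per kb, Cldn5 made up 87.0% ± 4.17 of the 10 claudin members in room air and 73.4% ± 5.63 in hyperoxia, and Cldn18 7.66% ± 2.86 and 19.5% ± 4.26. Neither share overlapped between the groups. The remaining claudins were low. Cldn1, Cldn10 and Cldn23, all epithelial, stayed below 3 CPM in every library. Cldn11, Cldn12 and Cldn15 had means of 3.03 to 13.2 CPM in room air against 4.03 to 17.7 in hyperoxia, and their log2 changes of 0.41 to 0.64 did not pass. The value of Cldn11, 0.64, was unstable: it was 0.23 without hyperoxia 2 and 0.035 without room air 3 and hyperoxia 2 together. Cldn11 passed in the fit of unfiltered counts (adjusted p = 0.0392) and with Y-linked read level as a term (log2 change 1.23, adjusted p = 0.0264).

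Of 4 genes for proteins that hold the strands from inside the cell, 1 rose. Cgn, the cingulin gene, was at 19.7, 28.6 and 36.7 CPM in room air and 58.2, 100.0 and 63.8 CPM in hyperoxia. The groups did not overlap and hyperoxia 2 stood apart at the top. The rise was 2.61-fold (log2 change 1.38 ± 0.24 SE, edgeR adjusted p = 0.0047). Its relative Cgnl1, paracingulin, which endothelium expresses too, had a log2 change of 0.19 (edgeR adjusted p = 0.37). Tjp1, the gene for the scaffold ZO-1, was at 629.5, 810.3 and 571.5 CPM in room air and 607, 566 and 619 CPM in hyperoxia, with overlapping groups (log2 change -0.17, 95% limits -0.50 to 0.16, edgeR adjusted p = 0.537). Tjp3, the epithelial scaffold gene ZO-3, did not pass either (log2 change 0.17).

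Of the 4 immunoglobulin-like junction molecules 0 passed by edgeR, with 2 lower at an unadjusted p below 0.05 and 1 lower by DESeq2. Esam, found on endothelium and platelets, was at 729, 712 and 588 CPM in room air and 568, 406 and 508 CPM in hyperoxia. Each hyperoxia library lay below each room air library, and the log2 change was -0.45 with 95% limits of -0.79 to -0.11 (edgeR adjusted p = 0.0885). Esam passed as lower in 6 of the 15 alternative fits, among them DESeq2 and the fit that left out room air 3. Jam2, an endothelial junctional adhesion molecule gene, had a log2 change of -0.36 (edgeR adjusted p = 0.257) and passed as lower with Y-linked read level as a term (-0.77, adjusted p = 0.0354). F11r, which encodes JAM-A of both epithelium and endothelium, was at 434 ± 41.9 and 428 ± 18.04 CPM (log2 change -0.02, 95% limits -0.29 to 0.25). Jam3 was low at 8.18 ± 1.19 and 5.755 ± 0.854 CPM (log2 change -0.51, edgeR adjusted p = 0.165), and an antisense gene covers 36.2% of its exonic bases.

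Of 4 cadherins, 2 rose. Cdh1, the gene for E-cadherin of epithelia, was at 169.4, 169.8 and 246.8 CPM in room air and 275, 390.4 and 350.2 CPM in hyperoxia. The groups did not overlap, though room air 3 came close to hyperoxia 1. Cdh1 rose 1.73-fold (log2 change 0.79 ± 0.18 SE, edgeR adjusted p = 0.0168), but its adjusted p reached 0.0745 when room air 1 was dropped, 0.0785 when room air 2 was, and 0.0624 when hyperoxia 3 was. Cdh5 was at 5129, 5088 and 3534 CPM in room air and 3974, 2690.0 and 3827 CPM in hyperoxia. Room air 3 lay below 2 of the hyperoxia libraries, and Cdh5 did not pass (log2 change -0.39, 95% limits -0.85 to 0.07, edgeR adjusted p = 0.279). With room air 3 and hyperoxia 2 both left out, it passed with a log2 change of -0.40 (adjusted p = 0.0351).

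Cdh13 was the 1 endothelial member that rose. It encodes T-cadherin, a cadherin held in the membrane by a lipid anchor, which binds adiponectin and is found on vascular cells. It was at 44.6, 40.7 and 31.7 CPM in room air and 87.5, 104 and 94.8 CPM in hyperoxia, well apart. The log2 change of 1.29 ± 0.14 SE had the smallest adjusted p of any member (edgeR adjusted p = 0.000402). It passed in each of the 15 alternative fits, in which the log2 change ran from 1.08 to 1.56. Per 100 counts of the pan-endothelial markers, Cdh13 gave 0.248 ± 0.0112 counts in room air and 0.734 ± 0.186 in hyperoxia. Epithelial transcripts rose in the same libraries (median log2 change of the type 1 markers 1.24), and which cells gave the Cdh13 counts was not tested. Cdh2, the N-cadherin gene, was at 20.9 ± 3.09 and 28.8 ± 5.01 CPM (log2 change 0.46, edgeR adjusted p = 0.0999). It passed as higher without hyperoxia 2 (log2 change 0.60, adjusted p = 0.036) and in the fit of unfiltered counts (adjusted p = 0.0281), and was 0.15 with Y-linked read level as a term.

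The catenins link cadherins to actin, and 4 of 5 did not pass. Ctnnb1, the gene for beta-catenin, was at 1038, 1012 and 867 CPM in room air and 984, 870.3 and 1021 CPM in hyperoxia, and the groups overlapped (log2 change -0.02, 95% limits -0.32 to 0.28). Other genes overlap 15.1% of its exonic bases. Ctnna1, for alpha-catenin, had a log2 change of 0.07 with limits of -0.22 to 0.36. Jup, for plakoglobin, which serves both adherens junctions and desmosomes, had -0.14, and Pkp4 had 0.02. Ctnnd1 encodes p120-catenin, which keeps cadherins at the membrane. It was at 92.3, 91.2 and 96.0 CPM in room air and 69.9, 57.5 and 73.8 CPM in hyperoxia, without overlap, and fell by 0.475 on the log2 scale (SE 0.11, edgeR adjusted p = 0.0232). Dropping 1 library ended this call in 4 of 6 cases, with an adjusted p of 0.0558 for room air 1, 0.0596 for room air 2, 0.056 for hyperoxia 1 and 0.0728 for hyperoxia 2. Another gene on its own strand covers 61.2% of its exonic bases, so its counts are uncertain.

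Of the 4 desmosome genes tested, 3 rose. Dsp encodes desmoplakin, the plaque protein that binds keratin. It was at 19.6, 22.7 and 30.4 CPM in room air and 48.6, 90.7 and 57.0 CPM in hyperoxia, a 2.70-fold rise (log2 change 1.43 ± 0.23 SE, edgeR adjusted p = 0.00313). Pkp2 and Pkp3 encode plakophilins, which pack desmoplakin into the plaque. Pkp2 was at 9.41, 12.6 and 17.6 CPM in room air and 25.8, 33.9 and 31.2 CPM in hyperoxia (log2 change 1.20 ± 0.21 SE, edgeR adjusted p = 0.005). Pkp3 was at 6.10, 8.39 and 9.27 CPM in room air and 16.2, 22.8 and 15.9 CPM in hyperoxia (log2 change 1.21 ± 0.21 SE, edgeR adjusted p = 0.00477). In all 3 genes each hyperoxia library exceeded each room air library. The desmosomal cadherin gene Dsg2 stayed low, between 2.37 and 5.30 CPM in room air and between 1.96 and 4.16 in hyperoxia, and did not pass (log2 change -0.26, 95% limits -1.10 to 0.58).

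Nectins are immunoglobulin-like molecules that start adherens junctions, and afadin, encoded by Afdn, ties them to actin. Of these 4 members 0 passed by edgeR, while 1 was lower at an unadjusted p below 0.05 and by DESeq2. Nectin1 was at 63.85, 58.9 and 51.9 CPM in room air and 39.2, 37.8 and 49.8 CPM in hyperoxia, without overlap (log2 change -0.46 ± 0.13 SE, edgeR adjusted p = 0.0513). It passed in 8 of 15 alternative fits. Nectin2, Nectin3 and Afdn had log2 changes of 0.10, 0.15 and -0.17, with 95% limits that lay between -0.45 and 0.38.

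All 4 connexins changed, 3 down and 1 up. Gja4 and Gja5 encode connexins 37 and 40 of arterial endothelium, Gja1 encodes connexin 43 of epithelium, endothelium and smooth muscle, and Gjc1 encodes connexin 45 of the vessel wall. The 250 bases before the start sites of the first 3, for which RefSeq's promoter table had an entry, are printed because these connexins went opposite ways; that of Dsp, which had the largest rise among called members with an entry, is set beside them. Sequences are from RefSeq on GRCm38.p6, 5′ to 3′ on the strand of the gene. Capitals mark GGGCGG or its reverse complement, the GC box bound by Sp1.

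Gja4, chr4:127314040-127314289, minus strand: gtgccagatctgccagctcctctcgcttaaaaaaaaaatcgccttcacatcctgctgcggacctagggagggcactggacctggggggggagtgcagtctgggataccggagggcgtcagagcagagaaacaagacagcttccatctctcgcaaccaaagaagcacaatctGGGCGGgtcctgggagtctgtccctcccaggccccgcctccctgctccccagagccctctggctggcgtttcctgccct

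Gja5, chr3:97032152-97032401, plus strand: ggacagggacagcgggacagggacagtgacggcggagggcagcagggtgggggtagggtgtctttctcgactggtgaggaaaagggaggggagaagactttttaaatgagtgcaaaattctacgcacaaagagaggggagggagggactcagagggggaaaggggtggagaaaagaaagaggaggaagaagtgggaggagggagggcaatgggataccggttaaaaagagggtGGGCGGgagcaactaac

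Gja1, chr10:56377050-56377299, plus strand: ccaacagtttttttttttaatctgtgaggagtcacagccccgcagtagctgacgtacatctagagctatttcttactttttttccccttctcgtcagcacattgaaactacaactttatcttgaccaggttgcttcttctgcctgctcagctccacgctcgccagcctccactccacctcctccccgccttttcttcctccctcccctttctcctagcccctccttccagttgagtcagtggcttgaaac

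Dsp, chr13:38151044-38151293, plus strand: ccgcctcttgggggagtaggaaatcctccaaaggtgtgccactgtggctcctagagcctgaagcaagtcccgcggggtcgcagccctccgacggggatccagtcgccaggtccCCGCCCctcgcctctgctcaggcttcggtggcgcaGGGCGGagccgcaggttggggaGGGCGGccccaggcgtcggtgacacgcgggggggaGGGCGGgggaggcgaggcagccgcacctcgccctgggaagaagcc

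The GC box occurred once each before Gja4 and Gja5, 4 times before Dsp and 0 times before Gja1. It was found, on either strand, in 23 of the 28 members with an entry and in 61.0% of 11828 tested genes with one. The E-box CAGGTG known from Snail and Zeb binding, the ETS site CCGGAAGT, the antioxidant response core TGACNNNGC and the TATA box TATAAA occurred in none of the 4 windows. Of the 28 members they were found in 6, 2, 3 and 3, and of the tested genes in 19.0%, 6.06%, 13.8% and 8.33%. A match is only a run of letters, not a bound site.

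Gja4 was at 545, 453 and 288 CPM in room air and 251, 154.5 and 244 CPM in hyperoxia. Every hyperoxia library lay below every room air library, but room air 3 was far below the other room air libraries and close to hyperoxia 1. Gja4 was 1.98-fold lower in hyperoxia (log2 change -0.985 ± 0.24 SE, edgeR adjusted p = 0.0237). Its adjusted p was 0.0889 after room air 1 was removed, 0.0847 after room air 2 and 0.0607 after hyperoxia 2. Gja5 was at 393, 347 and 226 CPM in room air and 163, 175 and 184 CPM in hyperoxia, without overlap. It was 1.85-fold lower (log2 change -0.89 ± 0.18 SE, edgeR adjusted p = 0.0102). It did not pass with Y-linked read level as a term (adjusted p = 0.0534) or scaled to the pan-endothelial markers (0.0582). Gjc1 was at 59.1, 57.7 and 52.1 CPM in room air and 37.6, 37.5 and 34.8 CPM in hyperoxia, a small fall with little spread (log2 change -0.62 ± 0.11 SE, edgeR adjusted p = 0.00412). Scaled to the pan-endothelial markers its change was -0.38 and did not pass (adjusted p = 0.325).

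Gja1 was at 122, 127 and 143 CPM in room air and 188, 261 and 249.1 CPM in hyperoxia. The groups did not overlap, with hyperoxia 1 the lowest of its group, and the rise was 1.78-fold (log2 change 0.83 ± 0.14 SE, edgeR adjusted p = 0.00393). The 6 markers of pericytes and smooth muscle, which also express Gja1, summed to between 253.8 and 347.3 CPM in room air and between 233.1 and 505.1 in hyperoxia, and the type 1 cell markers were higher as given above; their part in the rise was not tested. Per kb, Gja1 made up 4.10% ± 1.63 of the 4 connexins in room air and 12.4% ± 3.73 in hyperoxia, without overlap. Gja4 made up 75.6% ± 2.53 and 67.4% ± 7.35, and Gja5 16.8% ± 0.323 and 16.3% ± 2.95, both with overlap. Among 10 other arterial markers, chosen after the connexins' values were seen, 3 fell and 0 rose (4.41% and 6.77% over all genes). Their summed level was 4245 to 5958 CPM in room air and 3634 to 4079 CPM in hyperoxia. The 3 were the chemokine gene Cxcl12, the transcription factor gene Sox17 and the semaphorin gene Sema3g. The other 7 did not pass. Of these, Fbln5 was higher in hyperoxia without overlap (log2 change 0.30), and Jag1 (0.02) and Hey1 (-0.225) overlapped. The rest had log2 changes of -0.59 to -0.31. The part of arterial cells in the connexins' fall was not tested.

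Protocadherins are cadherins without the usual catenin-binding tail. Pcdh12, the vascular endothelial member that binds its like at endothelial contacts, was at 387, 316 and 249.1 CPM in room air and 201, 164 and 204 CPM in hyperoxia. It fell without overlap by 0.74 on the log2 scale (SE 0.16, edgeR adjusted p = 0.0157), but removing room air 1, room air 2 or hyperoxia 2 took its adjusted p to 0.0543, 0.0547 or 0.0508. Pcdh1, found in airway epithelium and in arteries, was at 1464 ± 354 and 1091 ± 149 CPM (log2 change -0.42, edgeR adjusted p = 0.205). Without room air 3 Pcdh1 passed as lower (log2 change -0.61, adjusted p = 0.024), as it did without room air 3 and hyperoxia 2 together (-0.52, adjusted p = 0.0105). Pcdh17, an endothelial member, was at 411 ± 65.2 and 429 ± 74.0 CPM (log2 change 0.06).

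**Figure D3:**
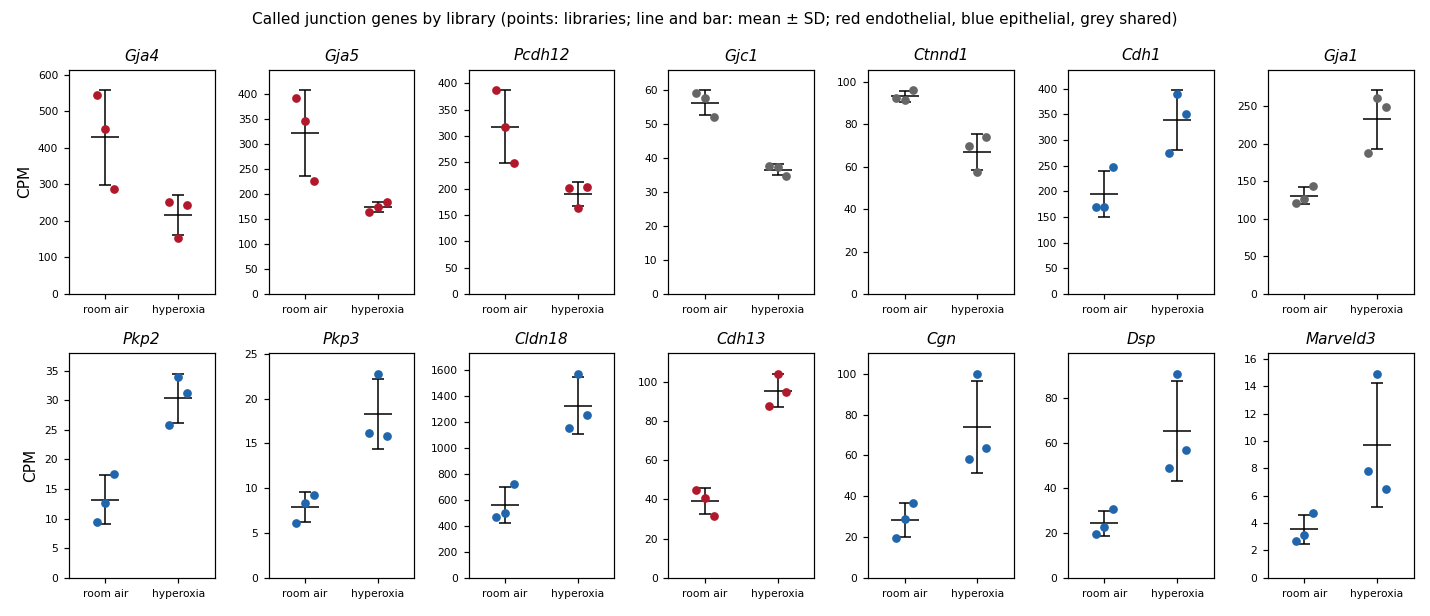
CPM of the 14 called members in each library, with mean and SD, on axes that start at 0. The 5 falls come first and the 9 rises after, and in each panel the 3 hyperoxia libraries lie clear of the 3 room air libraries, with the nearest libraries closest in Cdh1 and Gja4.

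Ratios of counts within a library do not depend on how libraries were scaled. The ratio of Cldn18 to Cldn5 counts was 0.184, 0.245 and 0.414 in room air and 0.630, 1.13 and 0.793 in hyperoxia, apart in all libraries, with a log2 difference of 1.64. That of Cdh1 to Cdh5 was 0.0330, 0.0334 and 0.0698 in room air and 0.0692, 0.145 and 0.0915 in hyperoxia, where room air 3 overlapped hyperoxia 1 (log2 difference 1.19). A two-sided exact permutation test of 3 against 3 cannot go below p = 0.1. The exact p was 0.1 for the first ratio and 0.2 for the second (0.167 and 0.286 adjusted by Benjamini and Hochberg over 10 ratios).

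Cldn18, with its log2 change of 1.24, was set against the type 1 cell markers. Of those 9 genes 8 rose, with a median log2 change of 1.24 and the largest in Akap5, Spock2, Hopx and Aqp5, and of the 8 type 2 markers, led by Sftpc and Sftpb, 0 passed by edgeR, with a median of -0.075. At an unadjusted p below 0.05, 1 of the type 2 markers was higher and 1 lower, and by DESeq2 1 was lower. Cldn18 gave 23.2 ± 2.19 counts per 100 counts of the type 1 markers in room air and 24.2 ± 0.855 in hyperoxia (exact permutation p = 0.6, adjusted p = 0.667). Of 7 pan-epithelial markers 5 rose, among them the keratin genes Krt7, Krt19, Krt18 and Krt8, with a list median of 1.24. Cdh1, with its log2 change of 0.79, gave 43.1 ± 1.14 counts per 100 of the pan-epithelial markers in room air and 33.3 ± 2.52 in hyperoxia, without overlap (exact permutation p = 0.1, adjusted p = 0.167). This ratio depends on the markers in the sum. The 5 that rose had log2 changes of 1.15 to 1.55, larger than that of Cdh1. Epcam (0.65) and Nkx2-1 (0.56) did not pass and had smaller changes than Cdh1. The parts that the number of epithelial cells in a library and the level per cell had in these rises cannot be told apart. The cells were selected for CD31, and how many epithelial cells each selection carried over was not tested. The rises therefore describe the libraries, and whether the epithelium of the lung changed was not tested. Msln, which marks mesothelium, rose as well (log2 change 1.76 ± 0.14 SE), while the other 3 mesothelial markers did not pass and the median of the 4 was -0.46. Of these, Lrrn4 (log2 change -1.66) and Upk3b (-0.95) were lower at an unadjusted p below 0.05 and by DESeq2. Of the airway markers 1 of 6 rose (Tppp3) and of the immune markers 1 of 6 (Cd68), against 6.77% of all genes. By edgeR 0 of 6 fibroblast, 0 of 6 pericyte and smooth muscle and 0 of 4 platelet markers passed. At an unadjusted p below 0.05 the counts were 1, 0 and 1, all lower, and DESeq2 gave the same numbers.

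Of the 14 pan-endothelial markers 2 fell (4.41% over all genes), Calcrl and Egfl7, and 0 rose, with a median of -0.21. Against their sum Cdh5 gave 29.1 ± 1.28 counts per 100 in room air and 26.1 ± 1.48 in hyperoxia, without overlap (exact permutation p = 0.1, adjusted p = 0.167). Cldn5 gave 13.4 ± 1.49 and 12.02 ± 0.728, with overlap (exact permutation p = 0.3, adjusted p = 0.375). Gja4 gave 2.69 ± 0.462 and 1.605 ± 0.179, and Gja5 2.03 ± 0.26 and 1.33 ± 0.248, both without overlap (exact permutation p = 0.1, adjusted p = 0.167 for each).

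**Figure D4:**
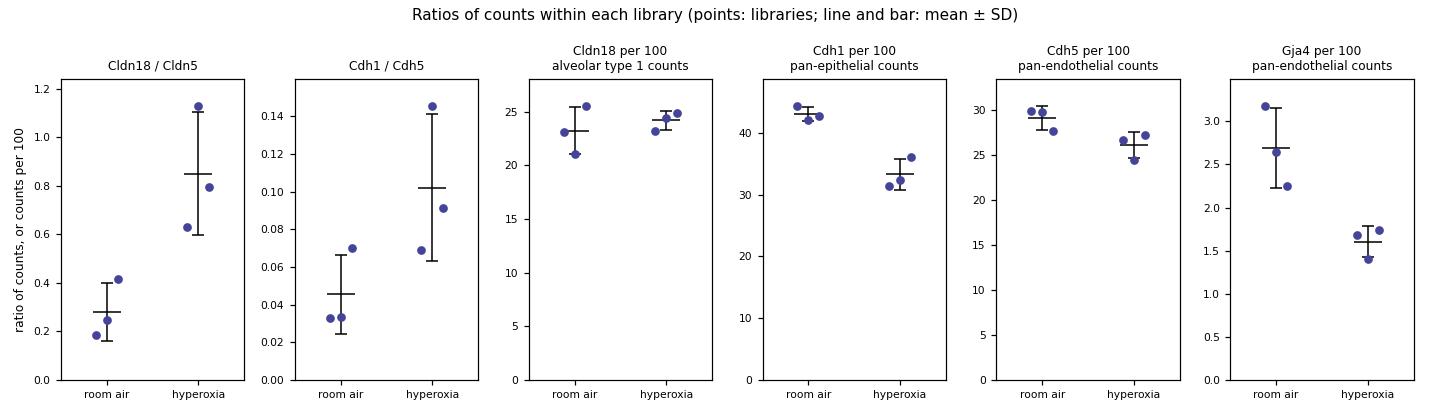
Ratios of counts within each library, 3 libraries per group with mean and SD, on axes that start at 0. The groups are apart in the Cldn18 to Cldn5 ratio, Cdh1 per 100 pan-epithelial counts, and Cdh5 and Gja4 per 100 pan-endothelial counts. They overlap in the Cdh1 to Cdh5 ratio, and Cldn18 per 100 type 1 counts lies between 21.1 and 25.5 in all 6 libraries.

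Rises outnumbered falls in the rest of the junction machinery, as they did over all genes, of which 6.77% rose and 4.41% fell. Of 97 further junction genes listed by family, 68 were tested, of which 18 rose, 2 fell and 48 missed the threshold; they had a median log2 change of 0.35. Cldn4, a claudin of alveolar and airway epithelium, rose from 7.57 ± 0.980 to 31.2 ± 4.31 CPM (log2 change 2.04 ± 0.16 SE, edgeR adjusted p = 9.62e-05), a larger log2 change than that of any member. Cldn2, of leaky epithelia, rose too but averaged only 0.23 and 1.01 CPM. Cxadr and Ildr1, genes of an epithelial adhesion receptor and of a protein of tricellular junctions, had rises of 0.90 and 0.91 on the log2 scale.

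Polarity genes, which set the top and bottom of epithelial cells, were tested with scaffold genes, and 6 of these 19 rose and 1 fell. Pard6b, of the PAR complex, rose from 38.4 ± 11.8 to 136 ± 31.3 CPM (log2 change 1.83 ± 0.23 SE, edgeR adjusted p = 0.000928). The atypical kinase gene Prkcz (1.12), the scaffold gene Patj (1.11) and the crumbs gene Crb3 (1.07) had smaller log2 rises. The scaffold gene that fell was Amot, for angiomotin, outside the largest 4 of its list and named after its value was seen (log2 change -0.63). Among 20 tested cadherin and catenin genes 4 rose and 1 fell. The protocadherin gene Pcdh7 (log2 change 1.22), the giant cadherin gene Fat1 (1.08) and Celsr1 (0.60) rose, and Fat4 fell (-0.65). The desmosome genes Perp (1.44) and Ppl (0.94), the adhesion gene Cadm4 (1.38) and the connexin gene Gjd3 (1.33) rose.

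Of 20 regulators of endothelial junctions, 2 fell, 1 rose and 17 missed the threshold (median log2 change -0.15). Over all genes 6.77% rose and 4.41% fell, 11.2% together, so the list's share of calls lay not far from that of all genes. Tiam1, a Rac activator that acts with VE-cadherin, had 62.4, 70.8 and 50.0 CPM in room air and 18.7, 13.2 and 19.6 CPM in hyperoxia (log2 change -1.83 ± 0.18 SE, edgeR adjusted p = 0.000247). Rapgef3, which encodes the Rap1 activator EPAC1, fell from 121 ± 13.9 to 81.3 ± 8.94 CPM (log2 change -0.58 ± 0.12 SE, edgeR adjusted p = 0.0134). Radil, a Rap1 effector gene, rose (log2 change 0.67). Of 9 transcription factors known to act on junction genes, 1 fell and 0 rose, a share close to the 11.2% of all genes that passed in either direction. It was Snai2, the Slug gene, which went from 8.73 ± 0.687 to 4.15 ± 1.09 CPM (log2 change -1.07 ± 0.24 SE, edgeR adjusted p = 0.0162).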

How the data were processed

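The deposited values are raw counts per Ensembl gene, 1 column per library. The tools named, in no stated order or role, are Subread 2.0.6, featureCounts, DESeq2 and HISAT2 2.2.1, and the build is GRCm39, per the submitters' processing notes. Annotation release and strand setting: not given in the sources used here. Of 56941 IDs, 51948 were matched to a symbol. Exon lengths and overlaps came from GENCODE M21 on GRCm38, so no coordinates are given apart from those of the promoter windows. These are on GRCm38.p6 and not on the submitters' build. Genes were kept by filterByExpr (minimum count 10, minimum total 15), which left 17072. Hyperoxia was compared with room air by edgeR 4.0.16 (R 4.3.3), with TMM factors of 0.975 to 1.04, the robust quasi-likelihood test, no covariate and Benjamini-Hochberg adjustment over all genes tested. SEs and 95% limits were derived from the F statistic and are approximate. The fits were tested on simulated data. No 2 libraries of a group agreed within sampling noise (chi-square per degree of freedom at least 14.1).

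All 46 members were named. Of each other list, up to 4 called genes by size, or the 2 most abundant where none was called, were eligible to be named; values per library are given for called members and for Cdh5, Cldn5, Tjp1 and Ctnnb1, among others. The promoters of Gja5 and Gja1 and the arterial list were added after values were seen. Amot, Lrrn4, Upk3b, Epcam, Nkx2-1, Fbln5, Jag1 and Hey1 were named outside the rule above, also after values were seen. The members, lists and rules were chosen with earlier results of these data known. Alternatives were DESeq2 1.42.0, limma-voom (limma 3.58.1), other scalings, no filter, each library left out, replicate number as a block and, chosen after seeing the data, Y-linked read level as a term and the removal of room air 3 with hyperoxia 2.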

Additional observations from a re-analysis of the deposited data

How the results depend on the processing

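With each library left out in turn, lower members numbered 2 to 8, endothelial lower members 1 to 4, shared lower members 1 to 4 and shared higher members 1 to 2, and over all genes 681 to 1095 rose and 376 to 749 fell. Scaled to the pan-endothelial markers, 1 member fell in all, 1 of the endothelial and 0 of the shared members, with 769 higher and 110 lower genes overall. With no filter on low counts 3 shared members rose and 1243 genes fell, and 1242 genes fell by DESeq2. With Y-linked read level as a term, 2 shared members rose and 1223 genes fell. Without room air 3 and hyperoxia 2 together, 5 endothelial members fell. With the replicate block 10 members rose and 5 fell; Cldn7 then passed (log2 change 0.55, adjusted p = 0.0486), and no other member's call changed. The cause of these changes was not tested. Replicate numbers did not pair the libraries: the deviations of equal numbers correlated at 0.112, -0.039 and -0.09, and only number 1 correlated best with its own. No member that passed changed direction in any fit. Cldn18, Cgn, Dsp, Pkp2, Pkp3, Gja1 and Cdh13 passed in every alternative. The ratio of Cldn18 to Cldn5 and that of Cdh1 to Cdh5 kept their direction without any 1 library. Low counts limited the precision of some members: the 95% limits of the log2 change were -1.34 to 1.13 for Cldn10, -1.10 to 0.58 for Dsg2 and -0.73 to 1.41 for Cldn1.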
